A study of Mus musculus with 24 samples.

Results

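Long intergenic noncoding RNAs (lincRNAs) were examined in LLC1 cells, a mouse cell line derived from the Lewis lung carcinoma, by RNA sequencing after drug exposure. Members were selected by their annotation and by their measured level. They are genes that GENCODE M21 types as lincRNA and whose mean reached 3 TPM in at least 1 of the 8 groups. TPM is a length-corrected share of a library's transcripts. In all, 15 genes met this rule, out of 196 lincRNAs with a transcript matched in the deposited table and out of 28328 matched genes of every type. GENCODE M21 annotates 5854 lincRNAs, so the 196 are a small part of the class. Chemotherapy cells received cisplatin at 2.5 µM with pemetrexed at 2.5 µM, and trametinib cells received trametinib at 10 nM. Combination cells received all 3 drugs at these doses, and untreated cells received 0.1% DMSO and none of the drugs. The sample labels used here give no DMSO content for the drug groups. Each treatment was sampled at 24 h and at 6 h with 3 libraries per group, 24 in all, from cells of 1 line and with no animal or other cell type involved. The sources used here do not say whether the libraries of a group came from separate cultures, so the spread behind each p-value may be technical.

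LincRNAs are transcribed from their own start sites between protein-coding genes, and most are capped, spliced and polyadenylated like mRNAs. Some act in the nucleus on neighbouring genes or chromatin, some scaffold protein complexes, and for most no function is known. Cisplatin forms crosslinks in DNA. Pemetrexed, an antifolate, starves cells of nucleotides, and trametinib is a MEK inhibitor that keeps ERK from being activated. The libraries were made from polyadenylated RNA, so RNAs without a poly(A) tail are under-represented. In bulk RNA, fewer cells with a transcript and less of it per cell cannot be told apart.

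Of the 196 listed lincRNAs, 70 were listed at 0 TPM in all 24 libraries, 30 had a group mean of at least 1 TPM, and 31 entered the test across genes, all 15 members among them. None of 79 long noncoding RNAs with a described role, such as Malat1, Neat1 and Meg3, was a member, and 6 of the 79 had a matched transcript of any gene type. Just inside the threshold lay 5031425E22Rik, Gm38399 and 4930562F07Rik, with highest group means of 4.13, 4.59 and 4.99 TPM. Just outside lay 4833413E03Rik, 5930430L01Rik and 2700054A10Rik, with highest group means of 2.85, 2.63 and 2.37 TPM. Each library had 11242 to 11851 genes at 1 TPM or more, and log2 values over all genes correlated at 0.993 to 0.997 between libraries of the same group. The mesenchymal marker Vim stood at 3296 to 4478 TPM and the keratin Krt8 at 69.9 to 209 TPM, while the epithelial markers Epcam and Cdh1 stayed at or below 0.154 TPM. The leukocyte marker Ptprc stayed at or below 0.0121 TPM, Adgre1 and Cd3e were listed at 0 in every library, and the endothelial marker Cdh5 stayed at or below 0.0995 TPM. Cd68 (3.68 to 39.3 TPM) and Pecam1 (2.06 to 12.7 TPM), markers on the macrophage and endothelial lists, were detected, and their part in the results was not tested.

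The lincRNA label did not rest equally well on all members. RefSeq (GRCm38.p6) lists 8 of the 15 as lncRNA, Gm20939, Gm6712 and Gm38399 as protein coding, Gm38399 being listed there as a synonym of Nav1, and Gm10076 as a pseudogene. It lists 4632415L05Rik and Gm32618 as transcribed pseudogenes, and Gm14396 was not matched. The longest open reading frame of the listed transcripts spanned 492 codons in Gm20939 and 237 in both BC002059 and Gm38399, against 39 in Dubr and 25 in Gm10076. No member held a snoRNA or microRNA gene. Exons of 4 members overlapped an exon of another gene on the opposite strand, 2 overlapped one on the same strand, and 9 overlapped none. The sources used here do not say whether quantification used strand, so reads of overlapping partners may not have been told apart. For 12 members 1 transcript was listed, such as 1 of the 5 annotated for Dubr. A stretch of 31 bases is the unit in which kallisto matches reads by default, and 8 members shared more than 10% of their 31-base stretches (31-mers) with another annotated gene, 4 shared a smaller part, and Dubr, Gm11110 and 5031425E22Rik shared none.

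The sequences that carry this point are those of Gm10076 (chr14:105681828-105682211, plus strand) and Gm6712 (chr17:17294443-17319511, plus strand). Gm10076 shared 84.2% of its 31-mers with other genes and 82.2% with Rpl41, which encodes a ribosomal protein. Its 78-base open reading frame, at chr14:105681869-105681946, had 0 differences from the coding sequence of Rpl41 with its stop codon, and both are printed in lower case throughout because no base differs.
Gm10076: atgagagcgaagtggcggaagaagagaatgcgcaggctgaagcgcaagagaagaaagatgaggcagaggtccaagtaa
Rpl41: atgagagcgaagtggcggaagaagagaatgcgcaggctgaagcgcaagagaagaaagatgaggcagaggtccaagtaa
Rpl41 averaged 5518 ± 295 TPM in untreated cells at 24 h, and Gm10076 averaged 9.35 ± 5.69 TPM there (SD, n = 3 each). Gm6712 shared 47.5% of its 31-mers, most of them with the zinc finger genes Zfp97 and Zfp960. A run of 68 bases, at chr17:17316119-17316186, was identical in all 3 genes and lies within the coding sequences of Zfp97 and Zfp960.
Gm6712: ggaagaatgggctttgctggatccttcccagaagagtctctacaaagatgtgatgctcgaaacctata
Values of such members cannot be fully separated from those of their copies and are uncertain to that extent. The other members with large shared parts were 4930562F07Rik (55.5%, with 4930523C07Rik on the opposite strand), C030034I22Rik (44.8%, with A930029G22Rik on the opposite strand), Gm20939 (26.4%, mostly with zinc finger genes) and Gm14396 (16.5%, with Gm28793 on the opposite strand). In untreated cells at 24 h 4930523C07Rik averaged 24.5 ± 4.72 TPM and 4930562F07Rik 4.13 ± 1.46 TPM (SD, n = 3 each). How far the values of 4930562F07Rik hold reads of 4930523C07Rik was not tested.

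Chromosome 17 held 5 of the 15 members, against 11 of the 196 listed lincRNAs. BC002059 (chr17:16951539-16974157) and Gm6712 lie on the same strand of it, and their promoter windows resemble each other. A window runs from 250 bases before the RefSeq start to 50 bases after it, and the 57 bases that these windows have in common are in capitals.
BC002059, chr17:16951286-16951585, plus strand: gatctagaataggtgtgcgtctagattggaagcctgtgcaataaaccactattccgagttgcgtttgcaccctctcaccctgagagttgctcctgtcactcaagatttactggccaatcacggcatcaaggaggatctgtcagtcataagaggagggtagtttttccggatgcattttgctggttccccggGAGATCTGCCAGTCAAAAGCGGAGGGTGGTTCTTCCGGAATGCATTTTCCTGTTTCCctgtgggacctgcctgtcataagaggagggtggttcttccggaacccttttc
Gm6712, chr17:17294193-17294492, plus strand: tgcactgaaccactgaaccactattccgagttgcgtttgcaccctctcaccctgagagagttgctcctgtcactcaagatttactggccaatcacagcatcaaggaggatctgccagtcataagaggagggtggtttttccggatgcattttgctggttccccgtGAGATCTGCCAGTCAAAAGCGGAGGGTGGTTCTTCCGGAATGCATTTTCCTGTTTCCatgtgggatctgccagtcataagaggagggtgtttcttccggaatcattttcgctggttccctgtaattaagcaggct
The 57-base run was found in 2 of 32544 RefSeq windows of this length, on either strand. Of the 280 different 20-base words of the BC002059 window, 34.3% also occurred in that of Gm6712 and 12.1% in that of Zfp97, and none occurred in that of Gm20939. The letters CACGTG occur in 7.17% of all windows on either strand. A run of TGANTCA occurs in 7.79% and a run of TGATGNAA in 3.91%. The p53 response element, searched only as a 20-base pattern without spacer or mismatch, occurs in 0.0092%. RefSeq gives a window for 10 members, but that matched to Gm38399 belongs to Nav1, whose RefSeq start lies 102750 bases from the GENCODE start of Gm38399, and it is not this member's promoter. The RefSeq start of 5031425E22Rik lies 933 bases from its GENCODE start, and that of C030034I22Rik is likewise shifted. Among the windows of the other members TGATGNAA was found in 4930562F07Rik, and none of the 4 motifs was found elsewhere. Most windows of all genes lack each motif, so absence from these few windows carries no information. A match is a match of letters and no measure of binding.

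The 15 members summed to 71.5 to 118 TPM per library. BC002059 was highest, at 15.8 to 25.8 TPM over the 24 libraries with a median of 18.9 TPM. Gm20939 followed with a range of 8.53 to 16.6 TPM and a median of 12.5 TPM, and Gm6712 with a range of 6.11 to 17.4 TPM and a median of 10.5 TPM. At the low end, C030034I22Rik had a median of 1.83 TPM and 4930562F07Rik a median of 1.90 TPM. The 7 most abundant members stood at 3 TPM or more in all 8 groups. A member that reached 3 TPM in few groups was chosen partly for a difference between groups, which holds most for C030034I22Rik (1 group), 4930562F07Rik and 5031425E22Rik (2 groups each). Gm14396 reached 3 TPM in the 4 groups that received trametinib and in no other. Counts of called members are therefore a description. No p is given for a change of a member between groups on both sides of 3 TPM, or where every group that admitted the member is among those compared. Of the tested genes, 51.6% had a lower mean than BC002059 and 15.5% a lower mean than 4930562F07Rik. The ratio of the highest to the lowest group mean was 12.3 for Gm14396, 10.4 for 4930562F07Rik and 4.81 for C030034I22Rik, and 1.43 for Gm10451. The highest group mean fell at 24 h in 11 members and at 6 h in 4, and it was that of combination cells at 24 h in 6.

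**Figure D1:**
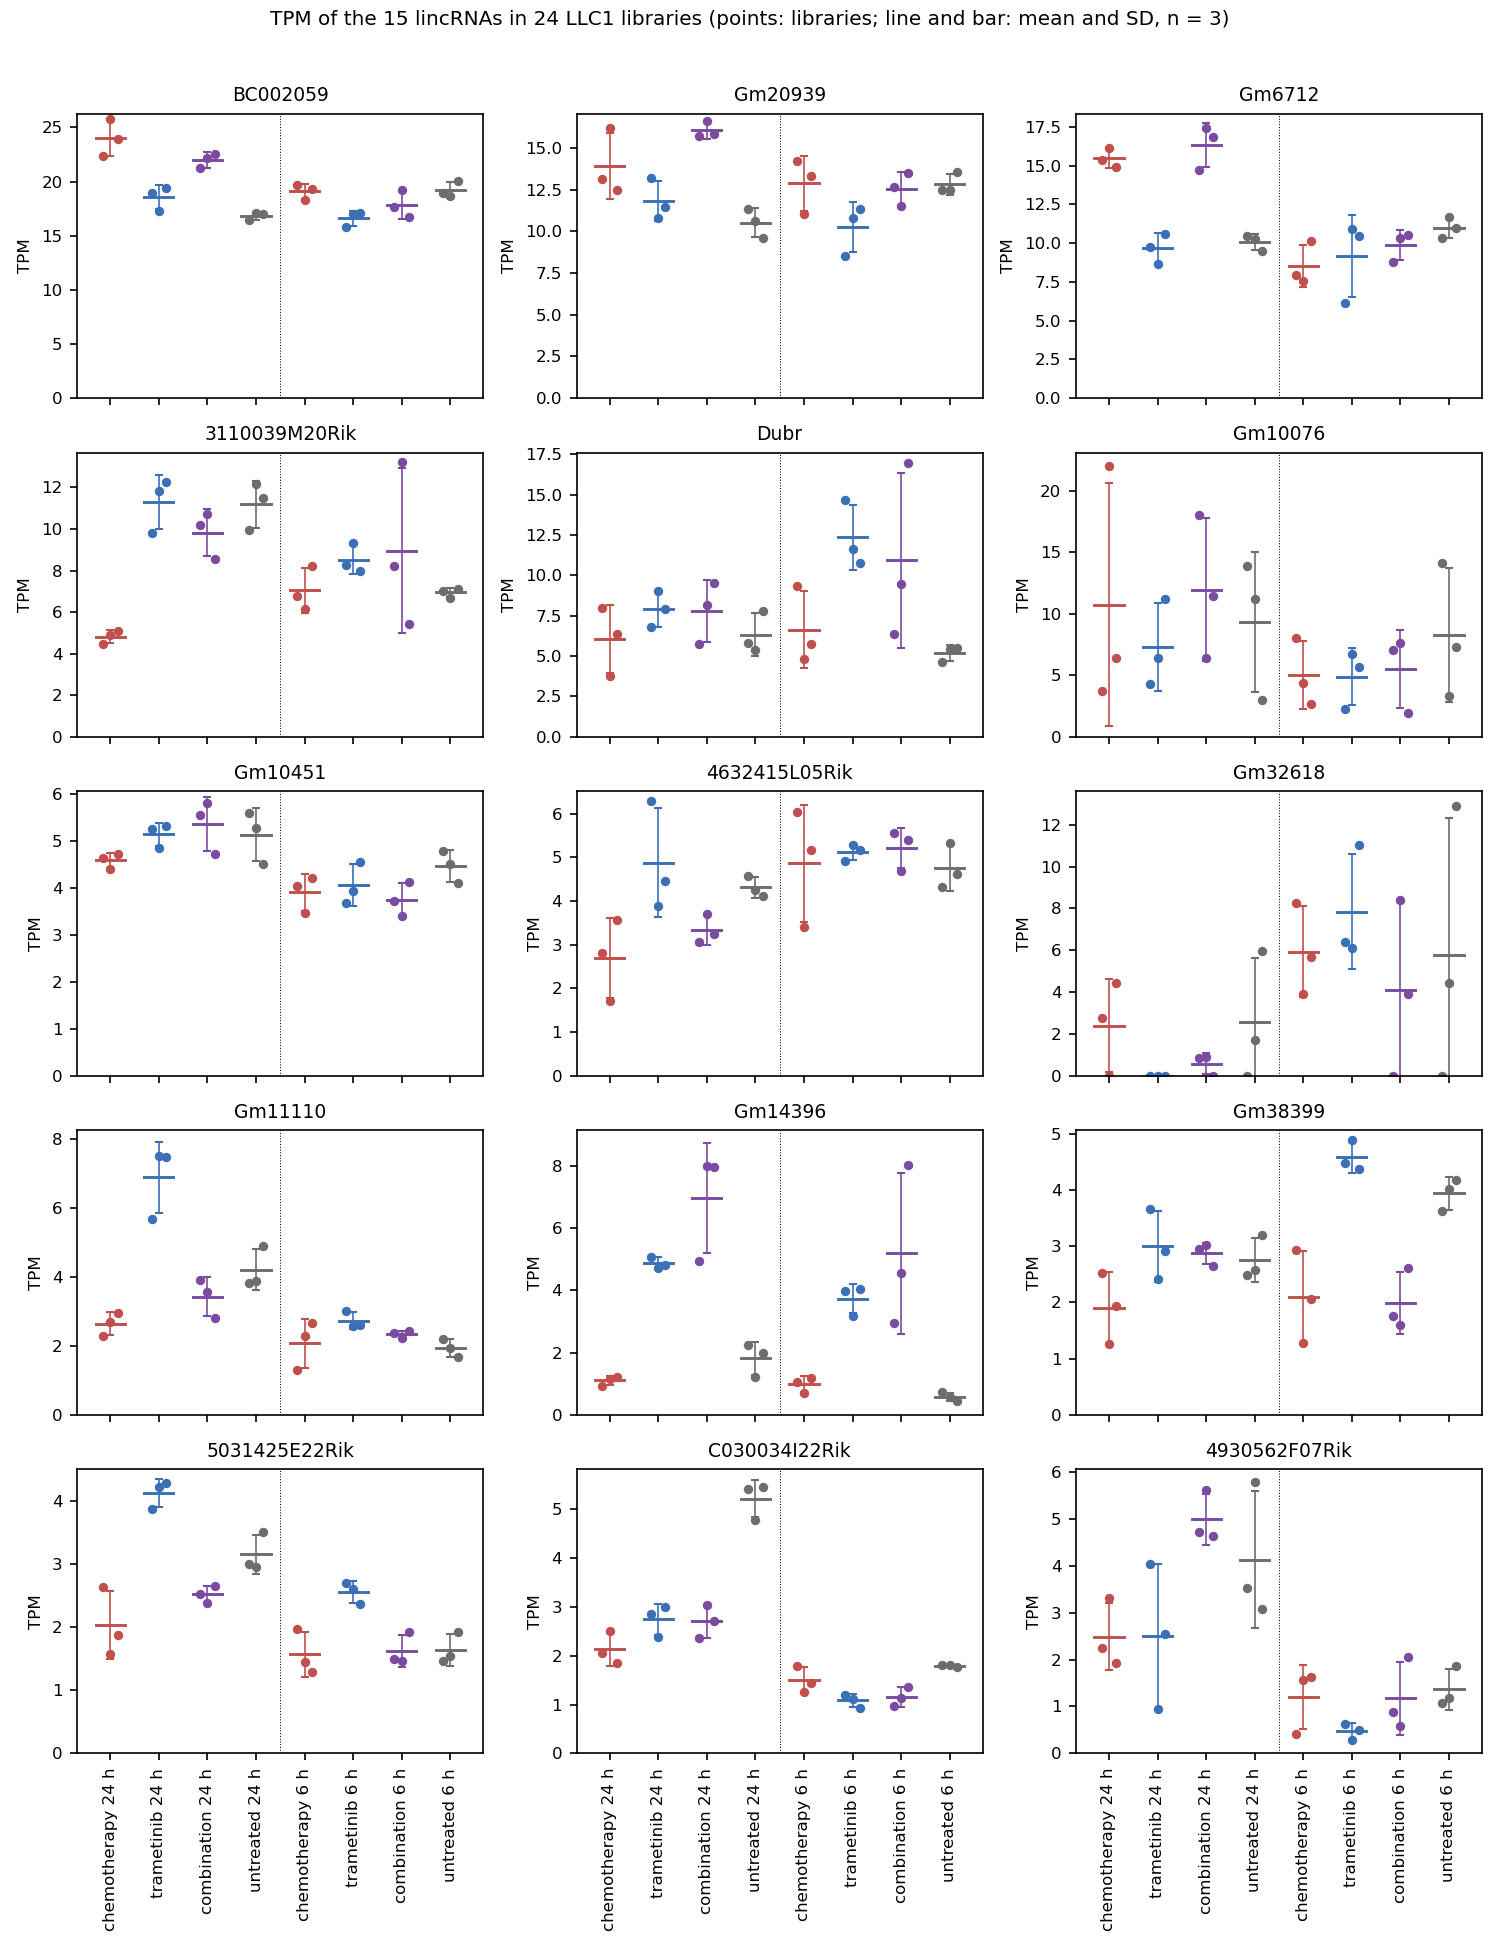
TPM of each lincRNA by group, with treatments at 24 h left of the dotted line and at 6 h right of it. Points are libraries, and lines and bars are the mean and SD of 3 libraries, bars being drawn from 0 upward. Gm14396 is high in the trametinib and combination groups of both times, and C030034I22Rik is high in untreated cells at 24 h.

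Changes below are log2 differences of TPM + 1 with their standard errors, tested with limma over 12581 genes and 24 libraries, and a gene with an adjusted p under 0.05 is called. Counts of members in fits without 1 library are raw counts, given without the share of all genes called in those fits. Against untreated cells at 24 h, chemotherapy moved 8 of the 15 members (3 higher, 5 lower), where 59.2% of all tested genes were called (34.9% higher, 24.3% lower). Trametinib at 24 h moved 4 members (3 higher, 1 lower), where 58.7% of genes were called (32.4% higher, 26.3% lower). The combination at 24 h moved 5 members (4 higher, 1 lower), where 63.4% of genes were called (39.6% higher, 23.8% lower). At 6 h, chemotherapy moved 1 member, lower, where 24.8% of genes were called (11.3% higher, 13.5% lower). Trametinib at 6 h moved 6 members (3 higher, 3 lower), where 54.8% of genes were called (35.9% higher, 18.9% lower). The combination at 6 h moved 4 members (2 higher, 2 lower), where 58.4% of genes were called (38.6% higher, 19.8% lower). The members' share ran from 6.67% to 53.3%, and its difference from that of all genes was not tested. Of the 15 members, 11 varied more between libraries of a group than the median gene of like level, and the part of this in the counts was not tested. The median change of the 15 members was -0.39 for chemotherapy, 0.08 for trametinib and 0.05 for the combination at 24 h, where all tested genes had medians of 0.06, 0.04 and 0.10. At 6 h the members' medians were -0.01, 0.09 and -0.10 for the same treatments, and those of all genes 0.01, 0.10 and 0.11.

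TPM is a share of each library's total, so a shift of many genes moves all others. Rescaling each library by its median ratio over genes lowered the median of all genes by 0.10 for the combination against untreated cells at 24 h, and by 0.11 for the combination against chemotherapy at 6 h. After rescaling, chemotherapy at 24 h called 3 members higher and 7 lower against untreated cells, 66.7% of the members where 61.0% of genes were called, so the order of the shares turned round. The chemotherapy effect at 24 h minus that at 6 h called 2 members higher and 6 lower after rescaling, 53.3% of the members where 46.8% of genes were called. After rescaling, the combination called 4 members higher and 3 lower at 24 h against untreated cells, 46.7% of the members where 64.5% of genes were called. At 6 h it called 2 higher and 4 lower, 40% of the members where 59.4% of genes were called. Over all genes, the higher share of calls for the combination against untreated cells was 62.4% at 24 h as deposited and 51.5% rescaled, and 66.1% at 6 h as deposited and 53.7% rescaled. For trametinib at 6 h it was 65.5% as deposited and 54.9% rescaled. No call of a member changed its direction under rescaling.

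**Figure D2:**
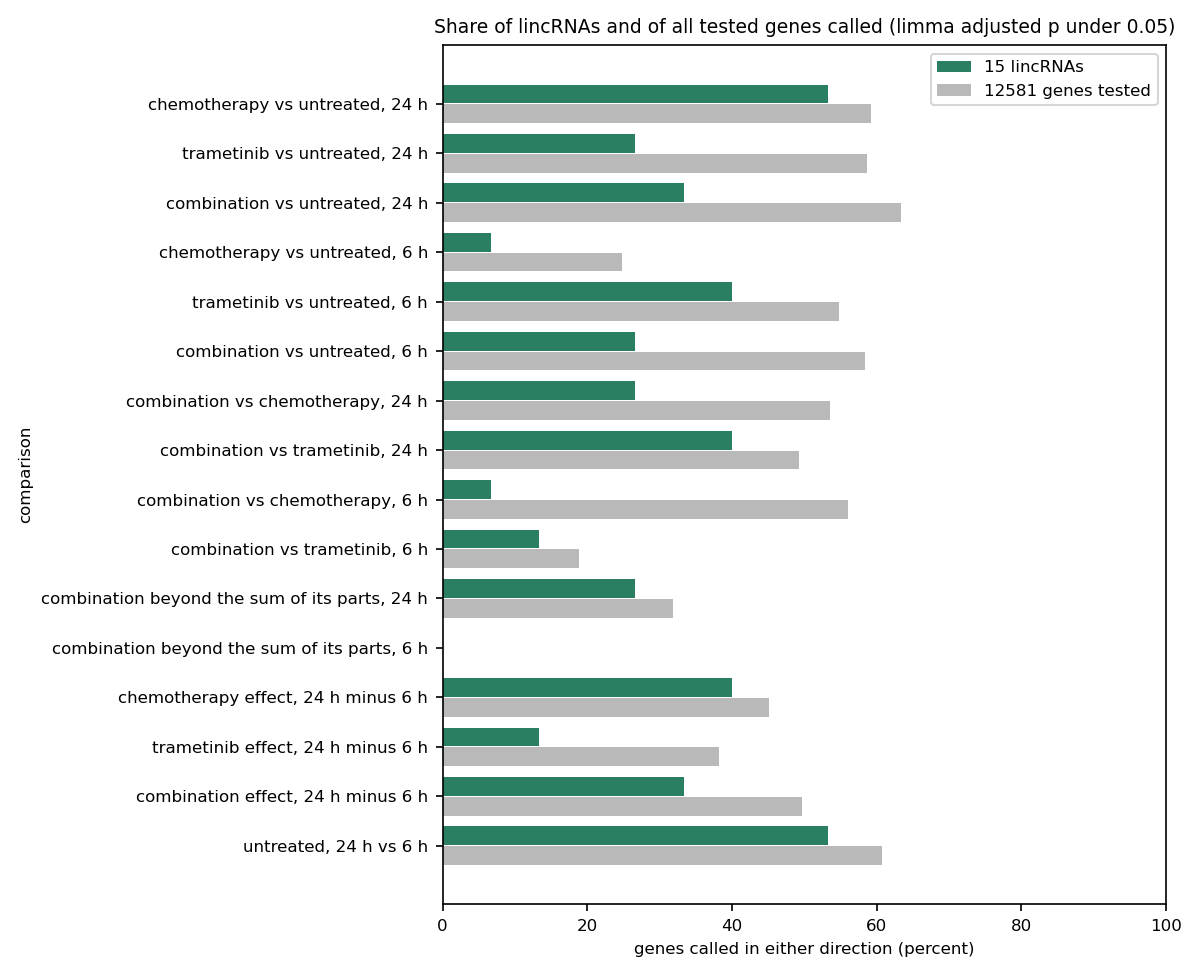
Share of the 15 lincRNAs (green) and of the 12581 tested genes (grey) called in either direction, in percent, in each of the 16 comparisons. With values as deposited, the green bar is shorter than the grey one in every comparison. After rescaling, which is not drawn, the members' share was the larger only for chemotherapy at 24 h (66.7% and 61.0%) and for the chemotherapy effect between times (53.3% and 46.8%). In the combination beyond the sum of its parts at 6 h both are near 0, with 0 members and 0.0954% of genes called.

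Gm14396 was higher with trametinib and with the combination at both times. Gm14396 (chr2:74695520-74697365, plus strand, 2 exons) lies in the HoxD cluster between Hoxd10 and Hoxd9, whose products are homeodomain transcription factors that pattern the limbs and body axis. At 24 h its 3 libraries held 5.09, 4.72 and 4.82 TPM with trametinib and 4.94, 8.03 and 7.98 TPM with the combination, against 2.24, 1.20 and 1.99 TPM in untreated cells. Every library with trametinib, alone or combined, lay above every untreated library. The changes were 1.08 ± 0.22 for trametinib and 1.50 ± 0.22 for the combination. These groups admitted the gene, so its changes with them are a description, with no p. At 6 h the libraries held 3.97, 3.19 and 4.05 TPM with trametinib and 2.97, 4.56 and 8.06 TPM with the combination, against 0.711, 0.562 and 0.436 TPM in untreated cells. The groups did not overlap at 6 h, and the changes were 1.59 ± 0.22 for trametinib and 1.90 ± 0.22 for the combination. With chemotherapy alone Gm14396 averaged 1.10 ± 0.15 TPM after 24 h, and its mean after 6 h was 0.98 ± 0.26 TPM (SD, n = 3 each). Neither comparison with untreated cells passed the test. Of its 2 listed transcripts 1 averaged 5.86 ± 1.27 TPM in combination cells at 24 h and the other 1.12 ± 0.55 TPM (SD, n = 3).

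The first 120 bases of a listed transcript of Gm14396 (chr2:74695601-74695720) are shown because this gene had the largest change against untreated cells of any member, and those of a transcript of Dubr (chr16:50732569-50732688, minus strand) because it shared no 31-mer with another gene.
Gm14396: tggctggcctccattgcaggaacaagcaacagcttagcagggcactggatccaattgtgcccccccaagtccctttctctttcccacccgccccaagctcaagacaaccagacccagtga
Dubr: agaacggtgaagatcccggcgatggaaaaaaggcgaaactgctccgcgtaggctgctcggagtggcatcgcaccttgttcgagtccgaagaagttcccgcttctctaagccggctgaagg

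The protein-coding genes around Gm14396 moved in the same direction with trametinib. Of the 11 coding genes whose start lies within 100 kb of that of Gm14396, 6 were tested, and all 6 rose with trametinib at 24 h and at 6 h and with the combination at 6 h, while 5 rose with the combination at 24 h. Of all tested genes, 32.4%, 35.9%, 38.6% and 39.6% were higher in these 4 comparisons, in the same order. The 6 are neighbours, Hoxd3 and Hoxd4 starting 16407 and 16409 bases downstream, and Hoxd3 averaged only 0.42 ± 0.37 TPM in untreated cells at 24 h (SD, n = 3). Hoxd10, whose start lies 3596 bases upstream, averaged 15.8 ± 0.52 TPM with trametinib at 24 h, against 6.74 ± 0.34 TPM in untreated cells (SD, n = 3 each), a change of 1.12 (limma adjusted p = 2.72e-10). Hoxd9, whose start lies 2207 bases downstream, averaged 17.9 ± 0.41 TPM with trametinib at 24 h, against 9.01 ± 0.95 TPM in untreated cells (SD, n = 3 each), a change of 0.92. Chemotherapy at 24 h lowered Hoxd10, Hoxd9 and Hoxd8 and raised Gm28230, where 34.9% of all genes were higher and 24.3% lower. At 6 h it raised Hoxd3, where 11.3% of all genes were higher. The counts with trametinib and the combination were the same after rescaling, while with chemotherapy at 24 h 4 were lower in place of 3.

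**Figure D3:**
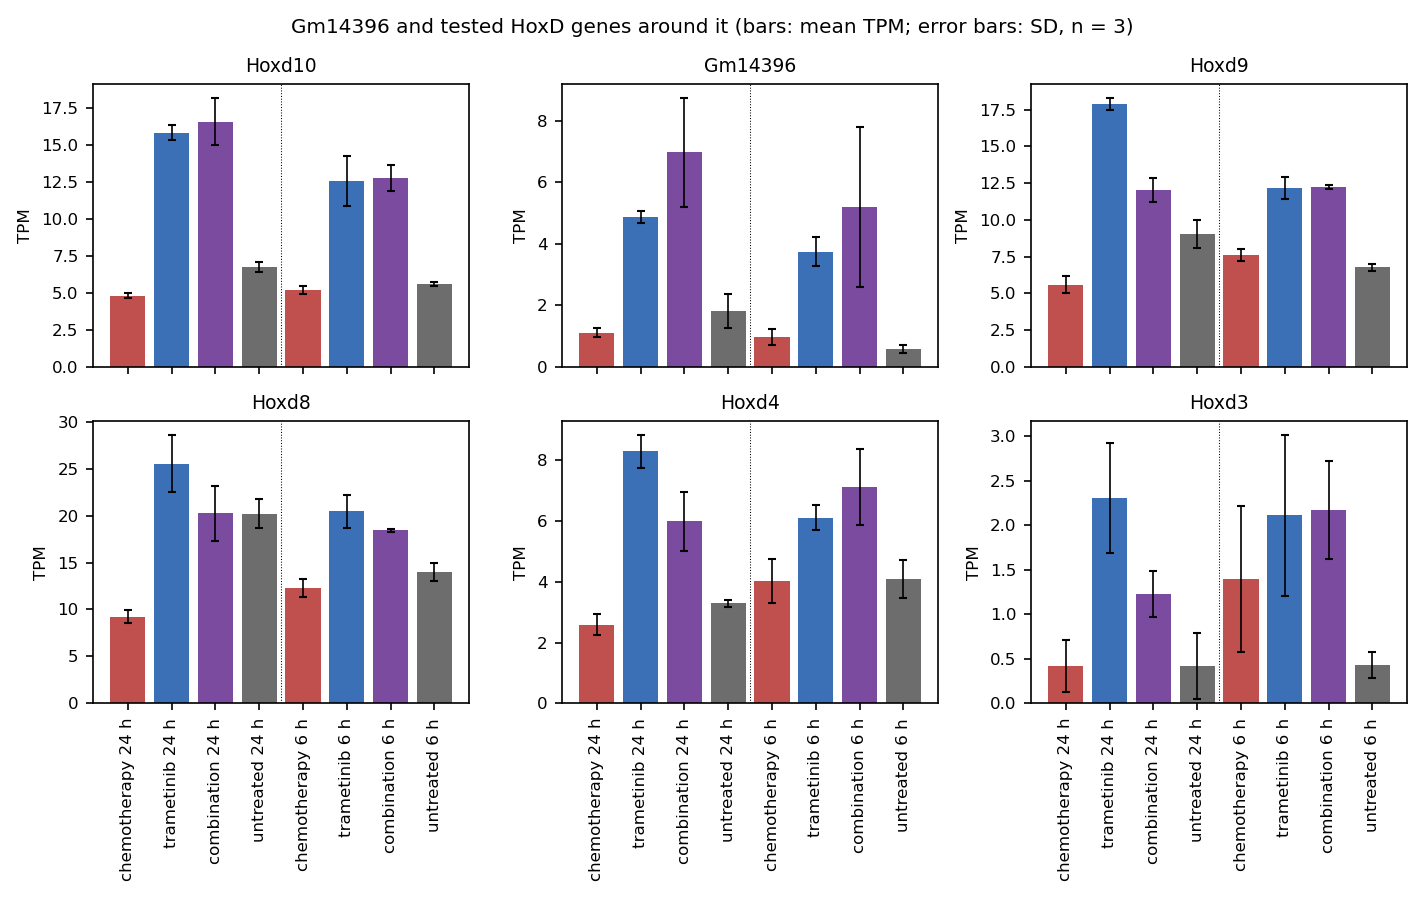
Mean TPM of Gm14396 and of 5 tested HoxD genes by group, with error bars for the SD of 3 libraries and treatments at 24 h left of the dotted line. Hoxd10 and Gm14396 are highest in combination cells at 24 h, while Hoxd9 is highest with trametinib alone at 24 h (17.9 TPM).

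Dubr, a lincRNA described in mouse muscle cells as a regulator of its neighbour Dppa2, rose at 6 h with both trametinib-containing treatments. Dubr (chr16:50719294-50732773, minus strand) held 14.6, 11.6 and 10.8 TPM with trametinib at 6 h and 6.37, 9.47 and 16.9 TPM with the combination, against 4.62, 5.44 and 5.53 TPM in untreated cells. All 6 libraries with trametinib lay above the untreated ones, and the combination libraries were spread widely. The change was 1.10 ± 0.28 with trametinib (limma adjusted p = 0.00243) and 0.85 ± 0.28 with the combination (limma adjusted p = 0.0133). Without combination library 3 the change with the combination was 0.51 and was no longer called (limma adjusted p = 0.117). At 24 h the mean of Dubr was 7.92 ± 1.10 TPM in trametinib cells and 7.82 ± 1.92 TPM in combination cells, against 6.33 ± 1.31 TPM in untreated cells (SD, n = 3 each), and neither difference passed the test. Ccdc54, its nearest coding gene by start, 141619 bases away, stayed at or below 0.15 TPM on average in every group and was not tested.

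The other members that rose with trametinib alone were 5031425E22Rik at both times and Gm11110 at 24 h. 5031425E22Rik (chr5:23382308-23434269, minus strand) starts 172 bases from the divergent gene Kmt2e, which encodes a SET-domain chromatin protein. It held 3.88, 4.22 and 4.29 TPM with trametinib at 24 h, against 2.998, 2.95 and 3.51 TPM in untreated cells, with no overlap and a change of 0.31 ± 0.12. These were also the 2 groups that admitted it, so no p is given. The call was lost without either trametinib library 2 or 3, or untreated library 1 or 2. At 6 h it held 2.69, 2.61 and 2.37 TPM with trametinib, against 1.46, 1.54 and 1.93 TPM in untreated cells, a change of 0.43 ± 0.12 (limma adjusted p = 0.00376). Kmt2e moved the same way with trametinib, with 39.1 ± 2.61 TPM with trametinib at 24 h, against 27.4 ± 1.31 TPM in untreated cells (SD, n = 3 each), a change of 0.50 (limma adjusted p = 0.000417), and with a change of 0.76 at 6 h. With the combination the pair did not move together. Kmt2e rose by 0.34 at 24 h (limma adjusted p = 0.00811) and by 0.49 at 6 h (limma adjusted p = 0.000419), where 5031425E22Rik changed by -0.24 ± 0.12 and -0.01 ± 0.12 and was not called. After rescaling, its change with the combination at 24 h was -0.32 and was called.

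Gm11110 (chr17:57091370-57105942, minus strand) overlaps Tnfsf9, a ligand of the TNF family, on the opposite strand, and the changes of the pair had opposite signs with trametinib and with chemotherapy at 24 h but not with the combination. Gm11110 held 5.68, 7.50 and 7.46 TPM with trametinib at 24 h, against 3.82, 3.88 and 4.88 TPM in untreated cells, a change of 0.60 ± 0.15 (limma adjusted p = 0.00157). Tnfsf9 averaged 1.44 ± 0.19 TPM with trametinib at 24 h, against 4.23 ± 0.10 TPM in untreated cells (SD, n = 3 each), a change of -1.10 (limma adjusted p = 3.94e-09). With chemotherapy at 24 h the signs were turned round. Gm11110 held 2.28, 2.69 and 2.95 TPM with chemotherapy, a change of -0.51 ± 0.15, while Tnfsf9 averaged 6.19 ± 0.61 TPM, a change of 0.46 (limma adjusted p = 0.000267). With the combination at 24 h Tnfsf9 changed by -0.67 (limma adjusted p = 2.89e-06) and Gm11110 by -0.24 ± 0.15, which was not called.

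C030034I22Rik was called lower in 5 of the 6 comparisons with untreated cells, 3 of them comparisons with the group that admitted it. C030034I22Rik (chr17:69417402-69421632, plus strand, 1 exon) held 2.06, 2.51 and 1.84 TPM with chemotherapy, 2.86, 2.39 and 3.0 TPM with trametinib and 2.37, 3.05 and 2.71 TPM with the combination at 24 h. Untreated cells at 24 h held 5.42, 4.78 and 5.45 TPM, above every treated library. The changes were -0.99 ± 0.10 for chemotherapy, -0.73 ± 0.10 for trametinib and -0.75 ± 0.10 for the combination. Untreated cells at 24 h were the 1 group in which it reached 3 TPM, so these 3 changes are given as a description, with no p. At 6 h it held 1.19, 1.12 and 0.939 TPM with trametinib and 0.966, 1.144 and 1.36 TPM with the combination, against 1.81, 1.81 and 1.78 TPM in untreated cells. Those changes were -0.43 ± 0.10 (limma adjusted p = 0.0014) and -0.38 ± 0.10 (limma adjusted p = 0.00321), and the groups did not overlap. With chemotherapy at 6 h it averaged 1.50 ± 0.27 TPM (SD, n = 3), which did not pass the test. Its partner A930029G22Rik on the opposite strand has no value used here, and their parts in the signal cannot be told apart. The coding gene nearest to C030034I22Rik by start, Akain1, 21924 bases away, averaged at or below 0.019 TPM in every group and was not tested.

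Chemotherapy at 24 h raised the 3 most abundant members, all on chromosome 17, and the combination raised the same 3. BC002059 held 22.4, 25.8 and 23.9 TPM with chemotherapy and 21.2, 22.2 and 22.6 TPM with the combination, against 16.4, 17.1 and 17.04 TPM in untreated cells. The groups were apart, with changes of 0.49 ± 0.06 for chemotherapy (limma adjusted p = 8.84e-07) and 0.37 ± 0.06 for the combination (limma adjusted p = 2.26e-05). Gm6712 held 15.4, 16.1 and 14.9 TPM with chemotherapy and 14.7, 17.4 and 16.9 TPM with the combination, against 10.5, 10.2 and 9.496 TPM in untreated cells. Its changes were 0.57 ± 0.14 (limma adjusted p = 0.00196) and 0.65 ± 0.14 (limma adjusted p = 0.000626), without overlap. Gm20939 (chr17:94864918-94878321, plus strand) held 13.1, 16.2 and 12.5 TPM with chemotherapy and 15.7, 16.6 and 15.8 TPM with the combination, against 11.3, 10.6 and 9.59 TPM in untreated cells. Its changes were 0.37 ± 0.11 (limma adjusted p = 0.00699) and 0.57 ± 0.11 (limma adjusted p = 0.000148), and without chemotherapy library 2 the first was 0.26 and no longer called (limma adjusted p = 0.0547). After rescaling, the 3 changes with the combination were 0.26, 0.54 and 0.46 for BC002059, Gm6712 and Gm20939, and all 3 remained called. The zinc finger genes with which Gm6712 shares sequence moved in the same direction. Zfp97 averaged 22.0 ± 0.88 TPM with chemotherapy and 23.1 ± 1.53 TPM with the combination, against 11.8 ± 1.11 TPM in untreated cells (SD, n = 3 each), and its changes were 0.85 (limma adjusted p = 1.58e-06) and 0.91 (limma adjusted p = 4.25e-07). Zfp960 changed by 0.53 with chemotherapy (limma adjusted p = 3.51e-06) and by 0.38 with the combination (limma adjusted p = 0.000131), its untreated cells averaging 13.5 ± 0.36 TPM (SD, n = 3). How far the values of Gm6712 hold reads of these genes, or of BC002059, with which it also shares sequence, was not tested. Zfp960 is also the coding gene nearest to BC002059. The nearest of Gm6712, Riok2, a RIO-family kinase gene, rose with chemotherapy at 24 h (0.47, limma adjusted p = 2.27e-06) and was not called with the combination (0.08, limma adjusted p = 0.277). The nearest of Gm20939, Mettl4, moved the other way, with a change of -0.46 for chemotherapy (limma adjusted p = 0.000186) and -0.66 for the combination (limma adjusted p = 2.64e-06).

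Trametinib at 6 h lowered BC002059 and Gm20939. BC002059 held 15.8, 16.97 and 17.1 TPM with trametinib, against 18.9, 18.6 and 20.02 TPM in untreated cells, a change of -0.20 ± 0.06 (limma adjusted p = 0.00833). Gm20939 held 8.53, 10.8 and 11.4 TPM, against 12.5, 12.4 and 13.5 TPM in untreated cells, a change of -0.31 ± 0.11 (limma adjusted p = 0.0231). The call of Gm20939 was lost without trametinib library 1 (-0.19, limma adjusted p = 0.154) and without untreated library 3 (-0.27, limma adjusted p = 0.0803).

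Members lowered by chemotherapy at 24 h included 3110039M20Rik. 3110039M20Rik (chr12:49389652-49407360, plus strand) held 4.46, 4.92 and 5.07 TPM with chemotherapy at 24 h, against 9.96, 12.1 and 11.5 TPM in untreated cells, a change of -1.07 ± 0.18 (limma adjusted p = 5.13e-05). In the trametinib and combination groups of that time it averaged 11.3 ± 1.31 and 9.82 ± 1.1 TPM (SD, n = 3 each), and neither passed the test. The coding gene nearest to 3110039M20Rik by start, Gm43517, 4478 bases away, averaged at or below 0.141 TPM in every group and was not tested. 5031425E22Rik held 2.63, 1.58 and 1.88 TPM with chemotherapy at 24 h, a change of -0.47 ± 0.12. 4632415L05Rik (chr3:19894886-19898984, plus strand, 1 exon) held 2.80, 1.72 and 3.56 TPM with chemotherapy at 24 h, against 4.58, 4.26 and 4.11 TPM in untreated cells, a change of -0.56 ± 0.17. Without chemotherapy library 2 that change was -0.35 and was no longer called. Its nearest coding gene Cp, which encodes the ferroxidase ceruloplasmin, averaged 196 ± 2.93 TPM with trametinib at 24 h, against 11.4 ± 0.74 TPM in untreated cells (SD, n = 3 each), while 4632415L05Rik averaged 4.88 ± 1.25 TPM with trametinib, against 4.31 ± 0.24 TPM in untreated cells.

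Gm38399 was the one member called with chemotherapy at 6 h. Gm38399 (chr1:135606447-135688105, minus strand) overlaps Nav1, a neuron navigator gene, on the same strand. At 6 h it held 2.93, 1.28 and 2.06 TPM with chemotherapy and 1.77, 1.60 and 2.62 TPM with the combination, against 3.63, 4.03 and 4.19 TPM in untreated cells, with no overlap. The changes were -0.71 ± 0.18 and -0.74 ± 0.18. Nav1 changed by -0.69 and -0.56 in the same comparisons. With trametinib at 24 h, however, Nav1 rose by 0.82 (limma adjusted p = 6.97e-08), where Gm38399 averaged 3.005 ± 0.63 TPM, against 2.76 ± 0.39 TPM in untreated cells (SD, n = 3 each), and was not called. Csrp1, the coding gene whose start is nearest to that of Gm38399, encodes a LIM-domain protein and rose by 1.82 with trametinib at 24 h, to 291 ± 11.3 TPM, against 81.6 ± 0.98 TPM in untreated cells (SD, n = 3 each). Without chemotherapy library 3, the chemotherapy comparison at 6 h called 2 members in place of 1, as a raw count.

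**Figure D4:**
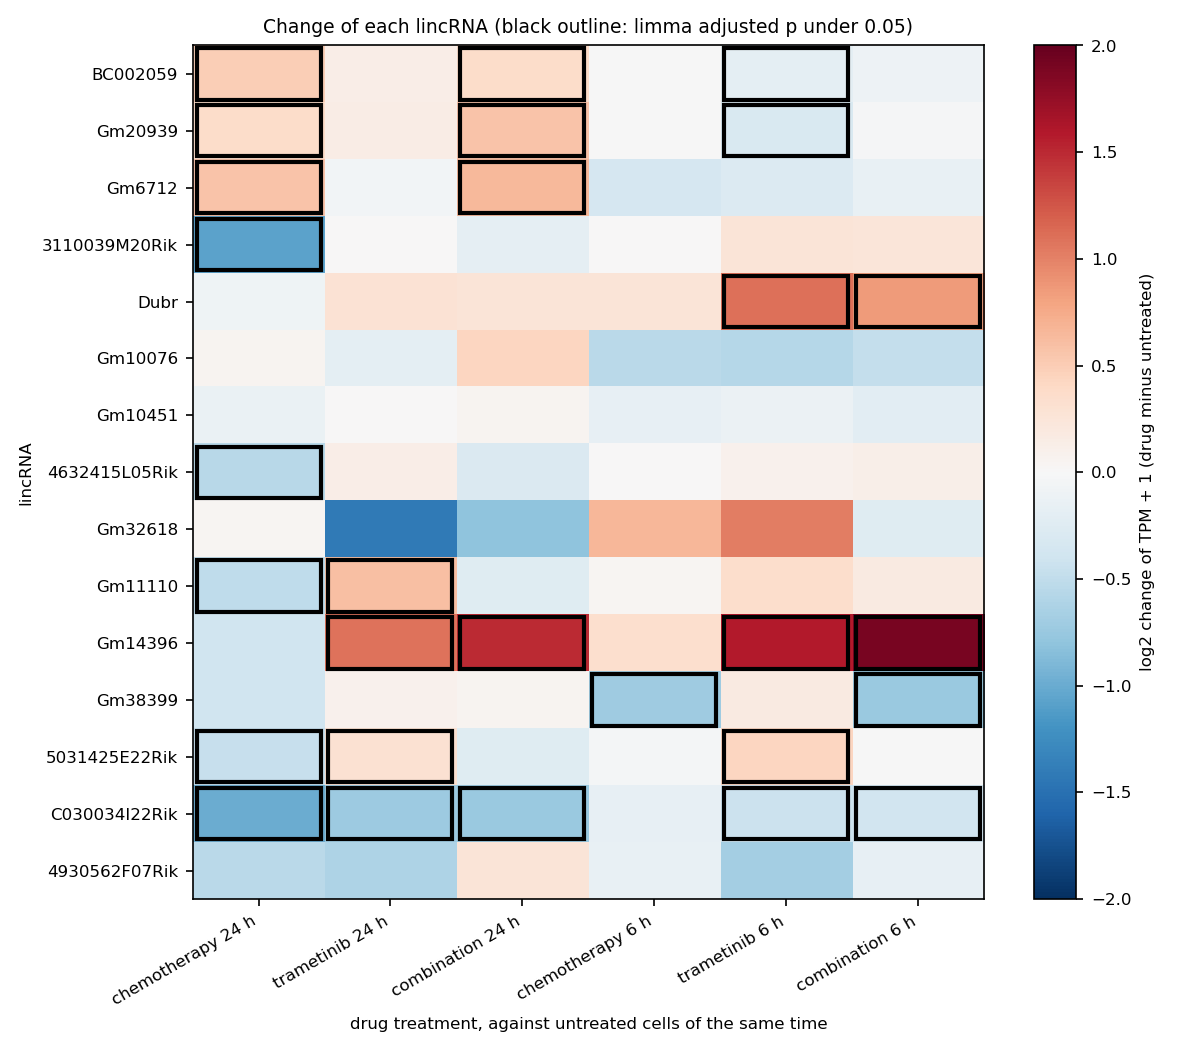
Log2 change of TPM + 1 of each lincRNA for each drug treatment against untreated cells of the same time, with 24 h left of 6 h. Colour gives the change from -2 to 2, and black outlines mark limma adjusted p under 0.05. The darkest outlined rises are those of Gm14396 with the combination at both times and with trametinib at 6 h, up to 1.90. Dubr with trametinib at 6 h (1.10) and Gm14396 with trametinib at 24 h (1.08) follow. The deepest outlined fall is that of 3110039M20Rik with chemotherapy at 24 h (-1.07).

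The combination was also compared with each of its parts. Against chemotherapy at 24 h it called 4 members, all higher, where 53.5% of genes were called. Gm14396 (1.90 ± 0.22) and 3110039M20Rik (0.89 ± 0.18, limma adjusted p = 0.000381) were among them. The other members were 4930562F07Rik (0.79 ± 0.31) and Gm38399 (0.44 ± 0.18, limma adjusted p = 0.0438). Each of these 2 calls was lost in 5 of the 6 fits without 1 library, that of 4930562F07Rik without chemotherapy library 1 or 3 or any combination library, and that of Gm38399 without chemotherapy library 2 or 3 or any combination library (limma adjusted p of 0.0562 to 0.234). Without chemotherapy library 2 the change of Gm38399 was 0.27. Without chemotherapy library 3 or without combination library 2, 2 members were called, as a raw count. After rescaling, BC002059 was called as well, lower (-0.16). Against trametinib at 24 h the combination called 6 members, where 49.3% of genes were called. BC002059, Gm20939 and Gm6712 were higher by 0.23 ± 0.06, 0.42 ± 0.11 and 0.70 ± 0.14, and 4930562F07Rik by 0.88 ± 0.31, while Gm11110 and 5031425E22Rik were lower, with changes of -0.83 ± 0.15 and -0.54 ± 0.12. Over all genes, the higher share of calls was 63.6% as deposited and 51.3% rescaled. The call of 4930562F07Rik was lost without trametinib library 2, where the change was 0.50, and without combination library 2. Its opposite-strand partner 4930523C07Rik changed by 0.38 ± 0.15 against chemotherapy at 24 h (limma adjusted p = 0.0416). Against trametinib at 24 h that partner changed by 0.09 ± 0.15 and was not called.

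At 6 h the combination called 1 member against chemotherapy, Gm14396 (1.57 ± 0.22), where 56.0% of genes were called. The raw count was 2 without chemotherapy library 1 or 2 or combination library 1, and 3 without combination library 3. After rescaling it was 1 higher and 2 lower, where 54.8% of genes were called, the change of Gm14396 being 1.48. Over all genes, the higher share of calls was 70.8% as deposited and 54.0% rescaled. Against trametinib at 6 h it called 2 members, both lower, where 18.9% of genes were called. Over all genes, the higher share of calls was 65.4% as deposited and 53.5% rescaled. The members were Gm38399 (-0.91 ± 0.18) and 5031425E22Rik (-0.44 ± 0.12, limma adjusted p = 0.011).

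A further test asked whether the log2 effect of the combination equalled those of chemotherapy and trametinib added together, at each time point. At 6 h limma called 0 members, where 0.0954% of genes were called, and 2 members had an unadjusted p under 0.05. At 24 h it called 4 members, where 31.8% of genes were called. They were BC002059, 3110039M20Rik, 4930562F07Rik and C030034I22Rik, and in the last of these the combination effect lay 0.97 ± 0.14 above the sum. Chemotherapy and trametinib each lowered this lincRNA, and the 3 treated groups had similar means of 2.14 ± 0.34, 2.75 ± 0.32 and 2.71 ± 0.34 TPM for chemotherapy, trametinib and the combination (SD, n = 3 each).

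Between the times, untreated cells differed in many members. In untreated cells, 8 members were called at 24 h against 6 h (6 higher, 2 lower), where 60.8% of genes were called. C030034I22Rik, at 5.42, 4.78 and 5.45 TPM at 24 h, against 1.81, 1.81 and 1.78 TPM at 6 h, changed by 1.15 ± 0.10, and no p is given because the 24 h value admitted it. 4930562F07Rik (chr1:160074735-160077985, minus strand), at 3.53, 5.79 and 3.07 TPM at 24 h, against 1.07, 1.17 and 1.87 TPM at 6 h, rose by 1.09 ± 0.31. Its opposite-strand partner 4930523C07Rik changed by 0.33 ± 0.15 and was not called. Gm14396, Gm11110, 5031425E22Rik and 3110039M20Rik rose by 0.82 ± 0.22, 0.82 ± 0.15, 0.65 ± 0.12 and 0.61 ± 0.18. BC002059 and Gm20939 were lower, with changes of -0.18 ± 0.06 (limma adjusted p = 0.0145) and -0.27 ± 0.11 (limma adjusted p = 0.0434). Neither was called after rescaling, which gave 7 members higher and 0 lower, where 62.5% of genes were called. The call of BC002059 was also lost without untreated library 1 of 24 h (limma adjusted p = 0.0535) or library 3 of 6 h (limma adjusted p = 0.0681). That of Gm20939 was lost without library 2 or 3 of 24 h or any 1 of the 3 libraries of 6 h, at limma adjusted p of 0.0621 to 0.16. The effect of a treatment at 24 h minus that at 6 h called 6 members for chemotherapy, where 45.1% of genes were called, 2 for trametinib, where 38.2% were, and 5 for the combination, where 49.7% were. For chemotherapy the higher share of calls over all genes was 62.9% as deposited and 50.9% rescaled. The raw count for trametinib was 1 without trametinib library 1 or untreated library 3 of 24 h, or trametinib library 1 of 6 h. All effects of 1 time share the untreated libraries of that time.

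Gm10451, Gm10076 and Gm32618 were called in none of the 16 comparisons by limma on the values as deposited. After rescaling, Gm10451 was called lower with chemotherapy at 24 h (-0.19, limma adjusted p = 0.0453) and with the combination at 6 h (-0.29, limma adjusted p = 0.00424), and higher in untreated cells at 24 h against 6 h (0.21, limma adjusted p = 0.0311). Gm10451 (chr12:76444497-76451336, plus strand) held 3.40 to 5.79 TPM over the 24 libraries with a median of 4.52 TPM, and its SD within groups on the log2 scale was 0.11, below the median of 0.13 for the 732 tested genes of like mean level. Gm10076 held 1.91 to 22.0 TPM with a within-group SD of 0.85, where 98.9% of genes of like level had a lower SD. In chemotherapy cells at 24 h its libraries held 3.75, 22.0 and 6.45 TPM, against 13.9, 11.2 and 2.96 TPM in untreated cells. Gm32618 (chr15:32778904-32796006, plus strand) was listed at 0 in 8 of the 24 libraries, and 98.6% of genes of like level had a lower SD than its 1.16. With trametinib it was listed at 0 in all 3 libraries at 24 h, against 0, 1.70 and 5.96 TPM in untreated cells of that time, and at 6 h it held 6.40, 6.11 and 11.01 TPM, against 0, 4.44 and 12.9 TPM in untreated cells. The values used here are TPM alone, and a value of 0 can be a failed estimate. Of the 15 members, 11 had a within-group SD above the median of genes of like level, while BC002059, Gm10451, 5031425E22Rik and C030034I22Rik had a lower SD.

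**Figure D5:**
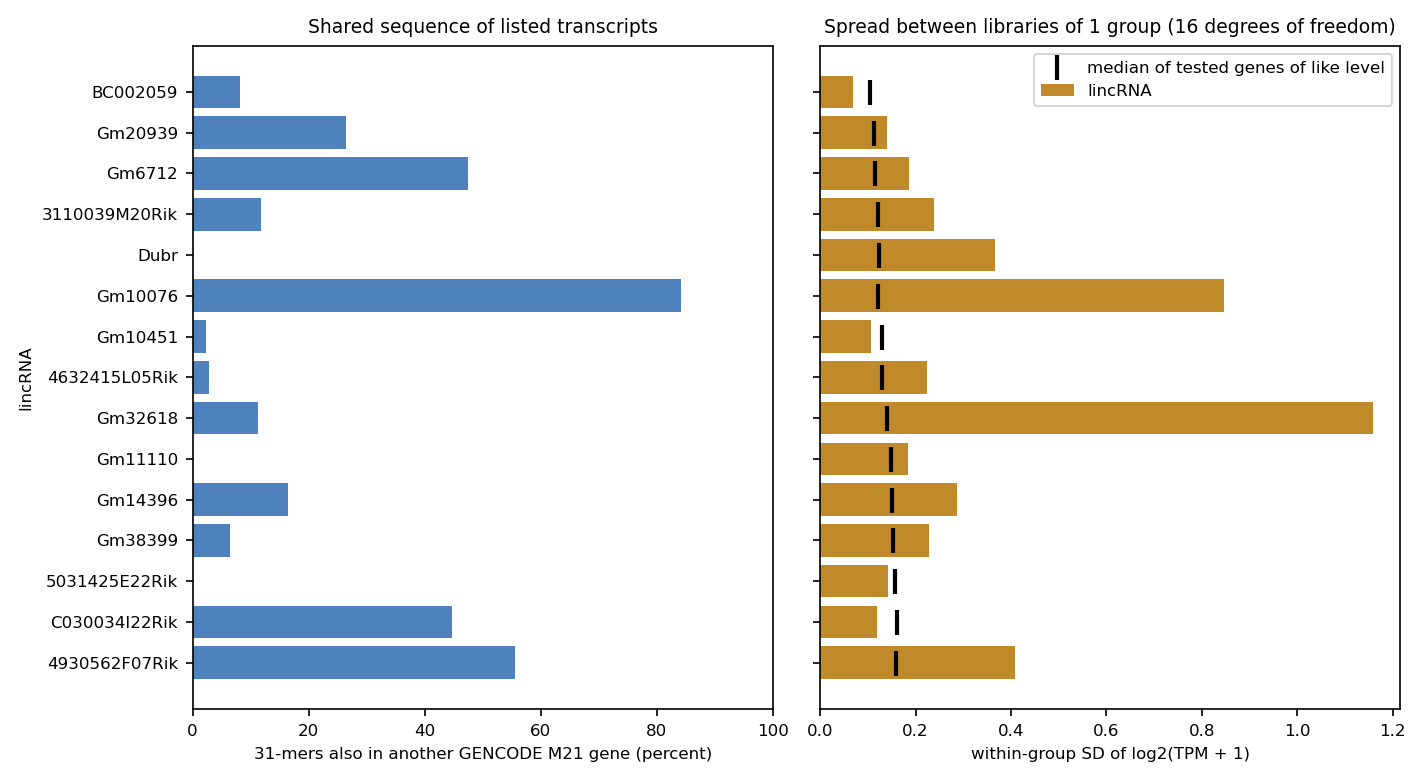
Left, the percent of each lincRNA's 31-mers that also occur in another GENCODE M21 gene. Right, its SD of log2(TPM + 1) within groups, with black ticks for the median of tested genes of like level. Gm10076 combines 84.2% shared 31-mers with an SD of 0.85, while Gm32618, with the widest SD of 1.16, shares 11.3%, and Dubr shares none with an SD of 0.37.

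Gene lists of RNA handling and of the p53 response were read beside the members. Against untreated cells at 24 h, 34.9% of all tested genes were higher and 24.3% lower with chemotherapy, 32.4% and 26.3% with trametinib, and 39.6% and 23.8% with the combination. At 6 h the shares were 11.3% and 13.5%, 35.9% and 18.9%, and 38.6% and 19.8% for the same treatments. Each count below is to be read against these shares. Of 14 tested nonsense-mediated decay factors, which degrade mRNAs with early stop codons and many noncoding RNAs, 11 were higher and 0 lower with chemotherapy at 24 h (median 0.42), and 10 were higher and 0 lower with the combination (median 0.38, where all genes had 0.10). With trametinib at 24 h 5 were higher and 1 lower. After rescaling, the counts at 24 h were 11 and 0 with chemotherapy, 10 and 1 with the combination, and 6 and 2 with trametinib. Upf2, chosen after its values were seen, rose by 1.04 ± 0.06 with chemotherapy at 24 h (limma adjusted p = 1.26e-11). At 6 h the counts were 1 higher and 2 lower with chemotherapy, 3 and 4 with trametinib (0 and 6 after rescaling), and 2 and 3 with the combination (2 and 5 after rescaling). The untreated reference itself differed between the times. In untreated cells at 24 h against 6 h 1 of these factors was higher and 12 were lower (median -0.40), where 60.8% of all genes were called in either direction. Of those calls over all genes 48.3% were higher and 51.7% lower, and the untreated counts of the lists below are to be read against these values. Of 15 tested genes of the nuclear exosome and its adaptors, which degrade many short-lived noncoding RNAs, 9 were lower and 0 higher with trametinib at 6 h (median -0.29, where all genes had 0.10), and 11 were lower and 0 higher with the combination at 6 h. After rescaling, 12 were lower with trametinib and 14 with the combination at 6 h, and 0 were higher with either. At 24 h 1 was higher and 8 lower with trametinib (1 and 11 after rescaling). With the combination 5 were higher and 6 lower (4 and 8 after rescaling), and with chemotherapy 5 were higher and 3 lower at 24 h (4 and 4 after rescaling) and 0 higher and 2 lower at 6 h. In untreated cells at 24 h against 6 h 1 was higher and 12 were lower (median -0.38). Dis3, the catalytic subunit of the exosome, chosen after its values were seen, changed by 0.99 with chemotherapy and by 0.44 with the combination at 24 h, and by -0.69 with trametinib and by -0.67 with the combination at 6 h. Of 23 tested p53 targets, 15 were higher and 2 lower with chemotherapy at 24 h, 2 higher and 16 lower with trametinib, and 17 higher and 4 lower with the combination. After rescaling these counts were 14 and 2, 2 and 16, and 15 and 5. At 6 h 16 were higher and 0 lower with chemotherapy (18 and 0 after rescaling), 11 and 5 with trametinib (11 and 9 after rescaling), and 17 and 3 with the combination. In untreated cells at 24 h against 6 h 15 were higher and 4 lower.

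Paraspeckle proteins, partners of the lncRNA Neat1, were split, with 7 of 13 higher and 2 lower with chemotherapy at 24 h as deposited, and 4 higher and 4 lower after rescaling. With trametinib and with the combination at 24 h 6 were higher and 2 lower, and after rescaling 6 and 5 with the combination. At 6 h 0 were higher and 4 lower with chemotherapy, 2 and 1 with trametinib (0 and 4 after rescaling), and 0 and 3 with the combination (0 and 7 after rescaling). In untreated cells at 24 h against 6 h 2 were higher and 8 lower. MicroRNA processing genes, 10 in all, were called in shares near those of all genes with chemotherapy at 24 h, and they had 4 higher and 3 lower with chemotherapy, 3 and 3 with trametinib, and 1 and 4 with the combination at 24 h. After rescaling these counts were 4 and 4, 3 and 4, and 1 and 5. At 6 h they had 1 and 2 with chemotherapy, 3 and 1 with trametinib (2 and 3 after rescaling), and 4 and 4 with the combination (2 and 4 after rescaling). In untreated cells at 24 h against 6 h they had 2 higher and 6 lower. Of 23 snoRNA host genes, 2 had a matched transcript, and both were tested. Zfas1 fell by 0.67 with chemotherapy and by 0.63 with the combination at 24 h, and by 0.63 with trametinib and 0.62 with the combination at 6 h, and Snhg11 rose with the combination at 6 h (0.30 ± 0.12, limma adjusted p = 0.0339) as deposited, a call lost after rescaling.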

How the data were processed

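RNA of LLC1 cells was sequenced in 24 libraries, 3 in each of 8 groups, from polyadenylated RNA with a stranded kit, per the labels' protocols. The authors deposited TPM, a length-corrected share of a library's transcripts, for 82934 transcripts. Per the submitters' processing notes, bcl2fastq 2.17.1.14 and kallisto 0.45 were used with GRCm38, and the transcript set and the strand setting are not given in the sources used here. TPM corrects for transcript length and library total and keeps no depth, so the depth is unknown and no counting interval is given. Matching to GENCODE M21 placed 79662 transcripts in 28328 genes, and TPM was summed per gene. The other 3272 transcripts held 4.45% to 5.98% of a library's TPM. Genes at 1 TPM or more in at least 3 libraries (12581) were tested in limma 3.58.1 (R 4.3.3) on log2(TPM + 1), which understates changes of low genes. One fit used 8 group means over 24 libraries, with a trend of variance on level and 16 residual degrees of freedom. P-values were adjusted by Benjamini and Hochberg over all tested genes in each of 16 comparisons. Scripts used Python 3.11.15 and pandas 2.3.3 and were tested on simulated data.

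LincRNA type, position and exon overlap came from GENCODE M21, and promoter windows and gene types from RefSeq, where 10 members were matched to a window, that of Gm38399 being the window of Nav1. Alternatives covered the pseudocount, low-value filter, scaling, variance trend, groups in the fit, replicate number, Bonferroni adjustment, member rule, exon overlap and each library left out in turn. Named members are those called in a comparison with the largest changes, the most abundant, those whose count of calls was 5 or fewer, those nearest the threshold, and the nearest coding genes of members called against untreated cells. The members and all gene lists were chosen with earlier results of these data known. No library pair was identical.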

Additional observations from a re-analysis of the deposited data

Results flagged for a closer look

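At 24 h, 4 lincRNAs had a combination effect that differed from the sum of the log2 effects of chemotherapy and trametinib in a test of that difference. For C030034I22Rik the combination lay 0.97 ± 0.14 above the sum, for 3110039M20Rik 0.88 ± 0.26 above it (limma adjusted p = 0.0133), and for 4930562F07Rik 1.42 ± 0.44 above it. No p is given where the groups compared lie on both sides of 3 TPM, as for C030034I22Rik and 4930562F07Rik here, because those levels chose the members. For BC002059 the difference was -0.25 ± 0.08 (limma adjusted p = 0.0277). 4930562F07Rik was no longer called without trametinib library 2 (1.04) or untreated library 2 (1.19). Its opposite-strand partner 4930523C07Rik lay 0.33 ± 0.21 above the sum and was not called. BC002059 was no longer called without chemotherapy library 2, trametinib library 1 or 3, combination library 1 or untreated library 1, at limma adjusted p of 0.0592 to 0.0767.

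The chemotherapy effect differed between 24 h and 6 h in 6 lincRNAs. The effect at 24 h minus that at 6 h was 0.91 ± 0.20 for Gm6712 (limma adjusted p = 0.00119) and 0.49 ± 0.08 for BC002059 (limma adjusted p = 0.000103). It was -1.08 ± 0.26 for 3110039M20Rik (limma adjusted p = 0.0022) and -0.82 ± 0.14 for C030034I22Rik. For Gm11110 it was -0.55 ± 0.21, a call lost without chemotherapy library 1 or untreated library 3 of 24 h, or chemotherapy or untreated library 2 or 3 of 6 h. For 5031425E22Rik it was -0.42 ± 0.16, a call lost without chemotherapy library 2 or 3 or untreated library 1 or 3 of 24 h, or chemotherapy library 1 or untreated library 1 or 2 of 6 h.

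The trametinib effect differed between the times in BC002059, by 0.33 ± 0.08 (limma adjusted p = 0.00417), and in Gm20939, by 0.46 ± 0.15 (limma adjusted p = 0.0243). The call of Gm20939 was lost without trametinib library 1 or untreated library 3 of 24 h or trametinib library 1 or untreated library 3 of 6 h, at limma adjusted p of 0.0575 to 0.0772. The combination effect differed in 5 lincRNAs, by 0.79 ± 0.20 for Gm6712 (limma adjusted p = 0.00326), 0.79 ± 0.25 for Gm38399, 0.60 ± 0.15 for Gm20939 (limma adjusted p = 0.0033) and 0.47 ± 0.08 for BC002059 (limma adjusted p = 0.000134). For C030034I22Rik it differed by -0.37 ± 0.14, a call lost without combination or untreated library 1 or 3 of 24 h, combination library 2 or 3 of 6 h, or any untreated library of 6 h.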

How the results depend on the processing

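No alternative that was run turned the direction of any of the 66 called changes of a named lincRNA. With Bonferroni adjusted p under 0.10 54 of the 66 were no longer called. In the fits without 1 library 61 of 498 values lost the call. No filter on low values, a fit of only the groups compared and a pseudocount of 0.1 lost 7 each, a pseudocount of 0.5 and rescaling lost 2 each, no variance trend lost 0, and all 28 values left under a filter of 5 TPM on the mean were called.

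Counts of called lincRNAs moved by more than 1.5 times as follows. Here and in the paragraphs that follow they are raw counts, given without the share of all genes called under the same setting. The member rules and the filter of 5 TPM leave fewer than 15 lincRNAs, such as the 9 without exon overlap. A smaller count under them is therefore not by itself a smaller share. Against untreated cells at 24 h, Bonferroni adjustment gave 2 for chemotherapy, 1 for trametinib and 3 for the combination, and at 6 h it gave 0, 1 and 1 for the same treatments. It gave 1 for the combination against chemotherapy at 24 h, 0 against trametinib at either time, 1 beyond the sum at 24 h, 0 for each of the 3 effects at 24 h minus 6 h and 1 for untreated cells at 24 h against 6 h. The filter of 5 TPM, which leaves fewer lincRNAs to test, gave 4, 0 and 3 for chemotherapy, trametinib and the combination at 24 h and 0, 3 and 1 at 6 h. It gave 1 and 0 against chemotherapy at 24 h and 6 h, 3 and 0 against trametinib, 2 beyond the sum at 24 h, 3 for the chemotherapy and combination effects between times and 3 for untreated cells. Members without exon overlap gave 5, 1 and 3 for the treatments at 24 h, 0 for chemotherapy and 1 for the combination at 6 h, 0 against chemotherapy at either time, 1 against trametinib at 6 h, 1 beyond the sum at 24 h, 3 for the chemotherapy and combination effects between times and 3 for untreated cells. Members with a mean of 3 TPM over all 24 libraries gave 2 for trametinib at 24 h, 0 for chemotherapy and 2 for the combination at 6 h, 2 against chemotherapy at 24 h, 0 against trametinib at 6 h, 2 beyond the sum at 24 h, 3 for the combination effect between times and 5 for untreated cells. Members with a group mean of 5 TPM gave 0 for chemotherapy at 6 h, 2 against chemotherapy at 24 h and 0 against trametinib at 6 h. Without the filter, 2 were called against chemotherapy at 24 h. Fits of only the groups compared gave 0 for chemotherapy at 6 h and 1 against trametinib at 6 h, and rescaling gave 3 against chemotherapy at 6 h. A group mean of 1 TPM would admit 30 lincRNAs. Apart from the member rules and filters, which change the genes tested, the cause was not tested.

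Without 1 library in turn, the count lay at 6 to 9 for chemotherapy, 3 to 5 for trametinib and 5 to 5 for the combination at 24 h, and at 1 to 2, 5 to 7 and 4 to 5 at 6 h. It lay at 2 to 5 and 1 to 3 for the combination against chemotherapy at 24 h and 6 h, 5 to 7 and 2 to 2 against trametinib, and 3 to 4 and 0 to 0 beyond the sum. It lay at 4 to 7, 1 to 2 and 4 to 6 for the chemotherapy, trametinib and combination effects between times, and at 6 to 9 for untreated cells.

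Same-numbered deviations from the group means correlated with medians of -0.043, -0.025 and -0.034 for the 3 numbers, over 28 pairs each. Single pairs ranged from -0.317 to 0.437, from -0.358 to 0.335 and from -0.280 to 0.270. The pairs mix groups of the same and of different times, so the medians cannot decide whether the numbers pair libraries within a time. With the replicate number as a block, 9, 4 and 5 lincRNAs were called for chemotherapy, trametinib and the combination at 24 h and 1, 6 and 4 at 6 h. The block gave 4 and 1 against chemotherapy at 24 h and 6 h, 7 and 2 against trametinib, 5 and 0 beyond the sum, 6, 2 and 4 for the 3 effects between times and 8 for untreated cells, and 2 calls were lost. Depth is unknown, so low values such as those of Gm32618 carry no counting error.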
